A study of Mus musculus with 12 samples.

Results

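The heat shock proteins and their DnaJ co-chaperones were followed across the livers of 3 genotypes of mice. Members were chosen by gene symbol, as every gene of the table that begins with Hspa, Hspb, Hsph, Hspd, Hspe, Dnaja, Dnajb or Dnajc and a number, or with Hsp90. This gave 72 of the 24411 genes listed, and 62 of them had enough counts to be tested. The symbols fix the members, and no measured value is part of that rule. The 72 were sorted by compartment and family into cytosolic HSP70 and HSP110, atypical HSP70, cytosolic HSP90, cytosolic class A and B J proteins, ER HSP70 and HSP90, ER J proteins, mitochondrial chaperones, the other class C J proteins and small heat shock proteins.

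Poly(A) RNA of whole liver was sequenced from 3 cont., 3 *Atg7*-KO and 3 *Atg7*-KO;*p62T352A* mice, which the study compared to ask what is lost when KEAP1 can no longer be held in p62 bodies. All 3 genotypes carry floxed *Atg7* alleles on a C57BL/6 background and were 3 months old per the study's methods. Cont. mice (Atg7 flox/flox) have no Cre and keep *Atg7*, whose product is needed to make autophagosomes. *Atg7*-KO mice (Atg7 flox/flox;Alb-Cre) also carry Cre driven by the albumin promoter, and the study describes their knockout as hepatocyte-specific. Whether *Atg7* was kept in other cells of the liver was not measured here. *Atg7*-KO;*p62T352A* mice have in addition the p62T352A exchange on both copies of *Sqstm1*, the gene of the autophagy receptor p62, in every cell of the body. A further genotype, p62T352A with floxed *Atg7* and no Cre, was not analysed here, so the exchange was seen only on the *Atg7*-deficient background.

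Heat shock proteins hold unfolded or newly made proteins and help them to fold, to cross membranes or to be handed over for degradation. HSP70 proteins bind and release clients in a cycle of ATP hydrolysis, which J proteins (the DnaJ family) start by bringing the client and stimulating the ATPase, and which HSP110 proteins end by exchanging the nucleotide. Cytosolic members are induced through heat shock factor 1, ER members through the unfolded protein response, and the liver, which secretes much of the protein of the plasma, depends heavily on the ER set.

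The libraries held between 9671080 and 23285132 counts. The targeted gene *Atg7* (chromosome 6) had 46.4, 44.2 and 55.4 normalized CPM in the 3 cont. mice, 10.1, 9.57 and 12.0 in *Atg7*-KO and 29.7, 27.4 and 29.5 in *Atg7*-KO;*p62T352A* mice. All cont. mice were above all mice with Cre, but *Atg7* was 2.73-fold higher in *Atg7*-KO;*p62T352A* than in *Atg7*-KO mice (log2 fold change 1.45 ± 0.17 (SE), edgeR FDR = 0.000164). In bulk liver RNA, fewer cells of a type and less RNA of a gene per cell cannot be told apart. Normalized CPM are library counts scaled to a common total after TMM scaling, and values for mice are always given in the order of mouse 1, 2 and 3. *Xist*, the RNA made from the inactive X chromosome, had 7, 28 and 9 counts in the mice numbered 1 of the 3 genotypes and between 8578 and 18335 in the other 6, and the labels do not give sex. Cont. mouse 1 had the highest level of the 3 cont. mice for many members. Its ratio to the mean of cont. mice 2 and 3 had a median of 0.958 over all genes and of 1.45 over the 62 tested members. The ratio was above 2 for 8.88% of all genes and for 8 of the 62 members. Cont. mouse 1 was also the largest library, with 23285132 counts against 11108106 and 9671080 in cont. mice 2 and 3. Calls that changed without this mouse are therefore given as well. Leaving it out keeps only cont. mice with high *Xist*, while each other genotype still holds a mouse with low *Xist*. The model held genotype only, and the part of *Xist* status or library size in these calls was not tested.

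A gene was called changed at an adjusted p (FDR, edgeR's quasi-likelihood test with Benjamini-Hochberg adjustment over 13922 genes) under 0.05 and a fold change over 1.5. Between *Atg7*-KO and cont. livers, 10 of the 62 tested members rose (16.1%; 21.6% of all genes tested) and 9 fell (14.5%; 22.1% of all genes tested). Between *Atg7*-KO;*p62T352A* and *Atg7*-KO livers, 16 rose (25.8%; 24.7% of all genes) and 14 fell (22.6%; 26.2% of all genes). In *Atg7*-KO;*p62T352A* against cont. livers, 8 members rose (12.9%; 6.25% of all genes) and 2 fell (3.23%; 5.34% of all genes). All 3 comparisons share groups of mice, so they are not independent of each other. The median log2 fold change of the members was 0.22, -0.14 and 0.11 in the 3 comparisons, against -0.03, 0.00 and 0.00 for all genes. With cont. mouse 1 left out, 23 of 63 tested members rose in *Atg7*-KO, where 28% of all genes rose, and 10 fell, where 28% of all genes fell. With the 3 mice numbered 1 left out, these counts were 22 and 10 of 62, against 27.1% and 27.3% of all genes.

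Calls that leaving out cont. mouse 1 added for *Hspa1b*, *Hspa8*, *Hsph1*, *Hspd1*, *Dnajb9*, *Dnajb11* and *Dnajc3* stand with those genes below. It also added rises in *Atg7*-KO for *Hspa13* at a log2 fold change of 1.08 (FDR = 0.0091), *Hspa14* at 0.65 (FDR = 0.0048), *Dnajb6* at 0.63 (FDR = 0.00253), *Dnajb12* at 0.90 (FDR = 0.00369), *Dnajc12* at 1.17 (FDR = 0.00177), *Dnajc14* at 0.75 (FDR = 0.00104), *Dnajc16* at 0.71 (FDR = 0.021) and *Dnajc24* at 0.92 (FDR = 0.00807), all by edgeR. Falls in *Atg7*-KO were added for *Dnajc1* at -0.63 (FDR = 0.00474) and *Hspa12b* at -1.40 (FDR = 0.00419), and that of *Dnaja4* was lost at -0.46 (FDR = 0.0765). Between *Atg7*-KO;*p62T352A* and *Atg7*-KO livers, falls were added for *Hsph1* at -0.62 (FDR = 0.0349) and *Dnajb14* at -0.64 (FDR = 0.0462) and a rise for *Dnajc15* at 0.60 (FDR = 0.0208). In *Atg7*-KO;*p62T352A* against cont., rises were added for *Dnaja2* at 0.71 (FDR = 0.00668), *Dnajc3* at 0.82 (FDR = 0.00836), *Dnajc9* at 0.80 (FDR = 0.0238), *Dnajc15* at 0.73 (FDR = 0.04) and *Hsp90b1* at 0.69 (FDR = 0.0405), and a fall for *Hspa12b* at -1.70 (FDR = 0.00748).

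**Figure D1:**
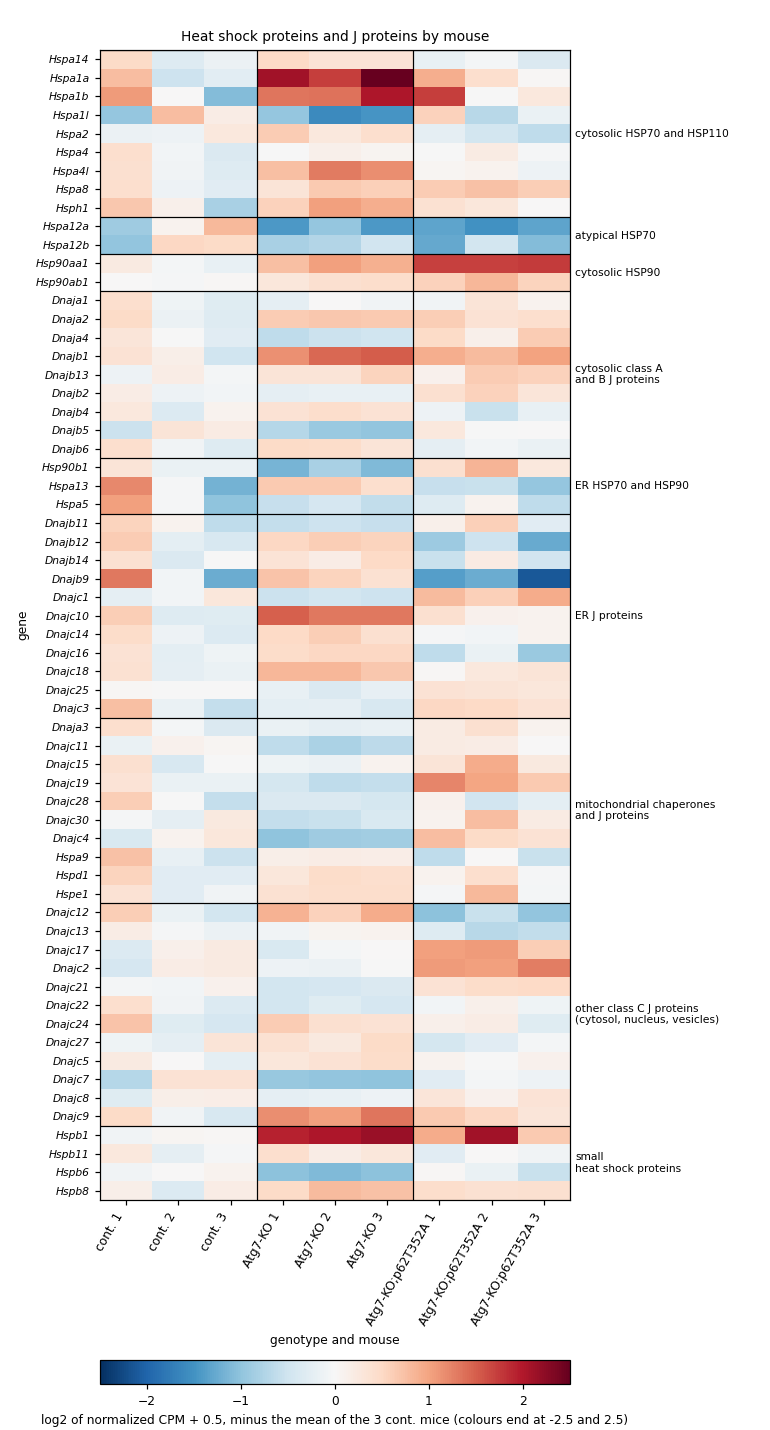
Level of each of the 62 tested members (rows, grouped by family) in each of the 9 mice (columns), as log2 of normalized CPM plus 0.5 minus the mean of the 3 cont. mice. *Hspa1a*, *Hspb1* and *Dnajb1* are red in all 3 *Atg7*-KO mice, *Hsp90aa1* is darkest in the 3 *Atg7*-KO;*p62T352A* mice, and cont. mouse 1 is red for *Hspa5*, *Hspa13* and *Dnajb9* where cont. mouse 3 is blue.

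In the cytosol, the stress-inducible *Hspa1a*, *Hspb1*, *Dnajb1* and *Hsp90aa1* rose in *Atg7*-KO livers, but the cytosolic set did not rise as a whole. With all mice *Hspa1b*, *Hsph1* and *Dnaja1* were not called (log2 fold changes 1.37, 0.74 and -0.13, edgeR FDR of 0.0818, 0.0878 and 0.658). *Dnaja4* fell (-0.64, edgeR FDR = 0.0404). Of the 9 cytosolic HSP70 and HSP110 genes 2 rose and 1 fell in *Atg7*-KO, where 21.6% of all genes rose and 22.1% fell. In *Atg7*-KO;*p62T352A* against *Atg7*-KO livers 1 rose and 4 fell, where 24.7% of all genes rose and 26.2% fell. Without cont. mouse 1, 6 of the 9 rose and 1 fell in *Atg7*-KO, against 28% of all genes rising and 28% falling. No gene of this family was called in *Atg7*-KO;*p62T352A* against cont. livers. Over the family, *Atg7*-KO livers differed from cont. by a median log2 fold change of 0.53, and *Atg7*-KO;*p62T352A* from *Atg7*-KO livers by a median of -0.63.

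*Hspa1a* and *Hspa1b* encode the inducible HSP70 and lie next to each other on chromosome 17 (GRCm38; 34969190 to 34972156 and 34956436 to 34959238, minus strand). They are shown with their promoter sequence because inducible chaperone genes are the classical carriers of heat shock elements. A search of the 250 bases before the start of each gene (RefSeq, GRCm38.p6) for 2 facing units, GAANNTTC or TTCNNGAA on either strand, found one in 14 of the 58 members with a promoter in the table (24.1%) and in 14.5% of all 27025 genes. A stricter element of 3 units (GAANNTTCNNGAA or TTCNNGAANNTTC), which always contains the shorter one, stood before 3 members (*Hspd1*, *Hspe1* and *Dnajb6*, 5.17%) and 0.514% of all genes. *Hspd1* and *Hspe1* lie head to head, and their elements are the same bases read from either side. Both counts are therefore of genes and not of separate sites. Of the 14 members with the 2-unit element, 3 rose in *Atg7*-KO (*Hspa1a*, *Hspb1* and *Dnajc10*), 2 fell (*Hspb6* and *Dnaja4*), 8 were not called and 1 was not tested. Of all genes tested, 21.6% rose and 22.1% fell in *Atg7*-KO, so these counts set no member with the element apart. *Dnajb1*, which also rose, had no such element in its promoter. The stretches shown are those of the called genes and of *Hspa1b*, with the elements in capitals:
*Hspa1a* (chr17:34972228-34972285, minus strand): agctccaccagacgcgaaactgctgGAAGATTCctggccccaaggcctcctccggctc
*Hspa1b* (chr17:34959310-34959367, minus strand): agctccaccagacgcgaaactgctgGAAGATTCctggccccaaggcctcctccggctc
*Hspb1* (chr5:135887777-135887854, plus strand): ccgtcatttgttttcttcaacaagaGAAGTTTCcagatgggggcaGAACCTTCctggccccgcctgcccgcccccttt
*Dnajc10* (chr2:80315259-80315316, plus strand): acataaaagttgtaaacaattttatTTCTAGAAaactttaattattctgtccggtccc
*Hspb6* (chr7:30553156-30553213, plus strand): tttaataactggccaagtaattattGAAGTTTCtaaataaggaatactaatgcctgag
*Dnaja4* (chr9:54699444-54699501, plus strand): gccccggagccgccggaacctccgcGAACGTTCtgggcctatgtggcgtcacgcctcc
The stretches of *Hspa1a* and *Hspa1b* were identical over all 58 bases, and *Hspb1* had a pair of elements. *Dnaja4* also had a pair, of which 1 is shown. A match describes these letters and is not a measured binding site.

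*Hspa1a* had 1.66, 0.378 and 0.55 in the cont. mice, 4.88, 3.70 and 7.51 in the *Atg7*-KO mice and 1.86, 1.19 and 0.783 in the *Atg7*-KO;*p62T352A* mice, on the scale of normalized CPM. Every *Atg7*-KO mouse was above every mouse of the other genotypes, and the levels were low throughout. It rose 5.72-fold in *Atg7*-KO against cont. (log2 fold change 2.52 ± 0.53 (SE), edgeR FDR = 0.00422) and fell 4.20-fold in *Atg7*-KO;*p62T352A* against *Atg7*-KO (log2 fold change -2.07 ± 0.51 (SE), edgeR FDR = 0.00728). *Hspa1b* had 17.0, 7.94 and 3.41 in the cont. mice, 20.6, 20.7 and 33.3 in the *Atg7*-KO mice and 27.2, 7.78 and 9.53 in the *Atg7*-KO;*p62T352A* mice. Its *Atg7*-KO mice were again all above the cont. mice, and *Atg7*-KO;*p62T352A* mouse 1 was as high as the *Atg7*-KO mice while the other 2 lay in the range of cont. The rise in *Atg7*-KO did not pass the test with all mice (log2 fold change 1.37 ± 0.59 (SE), edgeR FDR = 0.0818), and without cont. mouse 1 its log2 fold change was 2.11 (FDR = 0.0101). Of the 75-base stretches of these transcripts, 54.2% for *Hspa1a* and 55.8% for *Hspa1b* occur in other transcripts, mainly of each other, so how the authors' counting split reads between them is uncertain. Their summed level was 18.7, 8.32 and 3.96 in the cont. mice, 25.5, 24.4 and 40.8 in the *Atg7*-KO mice and 29.1, 8.97 and 10.3 in the *Atg7*-KO;*p62T352A* mice, which kept the 3 *Atg7*-KO mice above the 3 cont. mice.

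*Hspa8*, the constitutive HSC70 that serves protein folding, clathrin uncoating and chaperone-mediated autophagy, was the most abundant cytosolic HSP70, with 1469.7, 999.7 and 896 in the cont. mice, 1372, 1714 and 1651 in the *Atg7*-KO mice and 1710.2, 1815 and 1672 in the *Atg7*-KO;*p62T352A* mice. The 3 *Atg7*-KO;*p62T352A* mice were above the 3 cont. mice, and cont. mouse 1 reached into the range of *Atg7*-KO. *Hspa8* was not called with all mice in *Atg7*-KO (log2 fold change 0.49 ± 0.23 (SE), edgeR FDR = 0.102) or in *Atg7*-KO;*p62T352A* against cont. (log2 fold change 0.63 ± 0.23 (SE), edgeR FDR = 0.107). Without cont. mouse 1 both were called, at log2 fold changes of 0.73 (FDR = 0.00609) and 0.87 (FDR = 0.00885). In *Hspa8*, 32.8% of the 75-base stretches occur in other transcripts, mainly of a pseudogene that has no row in the table.

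Of the HSP110 genes, *Hspa4l* alone was called with all mice. *Hspa4l*, a nucleotide exchange factor of HSP70, had 19.1, 13.5 and 11.4 in the cont. mice, 24.7, 35.9 and 32.9 in the *Atg7*-KO mice and 14.9, 15.3 and 13.1 in the *Atg7*-KO;*p62T352A* mice. The *Atg7*-KO mice lay above all others, and *Hspa4l* rose 2.11-fold in *Atg7*-KO (log2 fold change 1.08 ± 0.23 (SE), edgeR FDR = 0.00413) and fell 2.17-fold in *Atg7*-KO;*p62T352A* against *Atg7*-KO (log2 fold change -1.12 ± 0.23 (SE), edgeR FDR = 0.00279). *Hsph1* (HSP105) had 67.8, 46.1 and 23.7 in the cont. mice, 63.4, 86.7 and 79.9 in the *Atg7*-KO mice and 55.3, 51.1 and 42.6 in the *Atg7*-KO;*p62T352A* mice. Cont. mice spread over the whole range of the *Atg7*-KO;*p62T352A* mice and beyond it, and no comparison was called (log2 fold change 0.74 ± 0.32 (SE), edgeR FDR = 0.0878 for *Atg7*-KO against cont.). Leaving out cont. mouse 1 gave a called log2 fold change of 1.13 (FDR = 0.00469) for *Atg7*-KO. *Hspa4*, the remaining HSP110 gene, was not called in any comparison (log2 fold change 0.02 ± 0.21 (SE), edgeR FDR = 0.931 for *Atg7*-KO).

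*Hspa1l*, an HSP70 known mainly from testis and a neighbour of *Hspa1a*, went the other way, with 1.55, 6.34 and 4.07 in the cont. mice, 1.55, 0.822 and 0.939 in the *Atg7*-KO mice and 5.43, 1.96 and 3.07 in the *Atg7*-KO;*p62T352A* mice. Cont. mouse 1 was at the level of *Atg7*-KO mouse 1, so the groups overlapped, while all *Atg7*-KO;*p62T352A* mice were above all *Atg7*-KO mice. It fell 3.56-fold in *Atg7*-KO (log2 fold change -1.83 ± 0.55 (SE), edgeR FDR = 0.0223) and rose 3.16-fold in *Atg7*-KO;*p62T352A* against *Atg7*-KO (log2 fold change 1.66 ± 0.55 (SE), edgeR FDR = 0.0277). *Hspa2*, also rich in testis, and *Hspa14*, a ribosome-associated HSP70, fell in *Atg7*-KO;*p62T352A* against *Atg7*-KO livers, *Hspa2* by 2.14-fold (edgeR FDR = 0.0086) and *Hspa14* by 1.53-fold (edgeR FDR = 0.042). Neither was called in *Atg7*-KO against cont. The atypical *Hspa12a* had 2.64, 5.67 and 9.78 in the cont. mice, 1.64, 2.51 and 1.66 in the *Atg7*-KO mice and 1.86, 1.54 and 1.83 in the *Atg7*-KO;*p62T352A* mice. The cont. mice were far apart from each other and still above all mice with Cre. It fell 3.05-fold in *Atg7*-KO (log2 fold change -1.61 ± 0.43 (SE), edgeR FDR = 0.0128) and was 3.40-fold lower in *Atg7*-KO;*p62T352A* than in cont. livers (log2 fold change -1.77 ± 0.44 (SE), edgeR FDR = 0.0325). *Hspa12b*, which is known from endothelium, was not called in any comparison with all mice (log2 fold change -0.97 ± 0.48 (SE), edgeR FDR = 0.125 for *Atg7*-KO against cont.).

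The cytosolic HSP90 genes followed a different order, with the highest levels in *Atg7*-KO;*p62T352A* livers. *Hsp90aa1*, the inducible HSP90 alpha, had 296, 245 and 223 in the cont. mice, 424, 512 and 471 in the *Atg7*-KO mice and 827, 826 and 849 in the *Atg7*-KO;*p62T352A* mice. The 3 groups did not overlap, and *Atg7*-KO lay between the others. *Hsp90aa1* rose 1.84-fold in *Atg7*-KO against cont. (log2 fold change 0.88 ± 0.18 (SE), edgeR FDR = 0.00374), 1.78-fold in *Atg7*-KO;*p62T352A* against *Atg7*-KO (log2 fold change 0.83 ± 0.18 (SE), edgeR FDR = 0.00401) and 3.28-fold in *Atg7*-KO;*p62T352A* against cont. (log2 fold change 1.71 ± 0.18 (SE), edgeR FDR = 0.00322). It is on chromosome 12 (110690605 to 110702728, minus strand), and 42.8% of its 75-base stretches occur in other transcripts, mainly of a pseudogene without a row in the table. *Hsp90ab1*, the constitutive HSP90 beta, had 789, 767 and 799 in the cont. mice, 961, 1042 and 1057 in the *Atg7*-KO mice and 1165, 1394 and 1159 in the *Atg7*-KO;*p62T352A* mice. The groups again did not overlap and stood in the same order, and only *Atg7*-KO;*p62T352A* against cont. was called (log2 fold change 0.66 ± 0.17 (SE), edgeR FDR = 0.0386). That call was kept in 6 of 18 alternative settings.

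Among the 9 tested cytosolic class A and B J proteins, 2 rose and 2 fell in *Atg7*-KO, where 21.6% of all genes rose and 22.1% fell. In *Atg7*-KO;*p62T352A* against *Atg7*-KO livers 3 rose and 1 fell, where 24.7% of all genes rose and 26.2% fell. Without cont. mouse 1, 3 rose and 1 fell in *Atg7*-KO, against 28% of all genes rising and 28% falling. *Dnajb1*, the main partner of inducible HSP70, had 23.7, 20.2 and 12.7 in the cont. mice, 40.9, 50.7 and 53.5 in the *Atg7*-KO mice and 34.8, 31.9 and 37.4 in the *Atg7*-KO;*p62T352A* mice. All mice with Cre were above all cont. mice, and the *Atg7*-KO mice were the highest. It rose 2.55-fold in *Atg7*-KO (log2 fold change 1.35 ± 0.23 (SE), edgeR FDR = 0.00148) and was 1.83-fold higher in *Atg7*-KO;*p62T352A* than in cont. livers (log2 fold change 0.87 ± 0.23 (SE), edgeR FDR = 0.0386). The drop from *Atg7*-KO to *Atg7*-KO;*p62T352A* was not called (log2 fold change -0.48 ± 0.23 (SE), edgeR FDR = 0.1).

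*Dnaja1*, a general partner of HSP70, had 338, 235 and 204 in the cont. mice, 216, 256 and 239 in the *Atg7*-KO mice and 239, 318 and 267 in the *Atg7*-KO;*p62T352A* mice, the groups overlapped, and no comparison was called (log2 fold change -0.13 ± 0.22 (SE), edgeR FDR = 0.658 for *Atg7*-KO). *Dnaja2*, its close relative, rose 1.53-fold in *Atg7*-KO (log2 fold change 0.62 ± 0.22 (SE), edgeR FDR = 0.0404), a call kept in 6 of 18 alternative settings. *Dnaja4* and *Dnajb5* fell in *Atg7*-KO and rose in *Atg7*-KO;*p62T352A* against *Atg7*-KO, but the fall of *Dnaja4* (log2 fold change -0.64 ± 0.22 (SE), edgeR FDR = 0.0404) was kept in 7 of 18 alternative settings. *Dnajb5* had 5.10, 9.64 and 8.79 in the cont. mice, 4.40, 3.74 and 3.58 in the *Atg7*-KO mice and 9.21, 7.57 and 7.64 in the *Atg7*-KO;*p62T352A* mice, with the *Atg7*-KO mice below all others. Its log2 fold changes were -1.00 ± 0.26, FDR = 0.0116 for *Atg7*-KO and 1.06 ± 0.26, FDR = 0.00707 for *Atg7*-KO;*p62T352A* against *Atg7*-KO (SE and edgeR FDR). *Dnajb2*, a J protein with ubiquitin-binding motifs, rose 1.56-fold and *Dnajb4* fell 1.60-fold in *Atg7*-KO;*p62T352A* against *Atg7*-KO livers, at edgeR FDR of 0.00638 and 0.0149. *Dnajb6* was just under the fold threshold there (log2 fold change -0.58 ± 0.20 (SE), edgeR FDR = 0.032), and *Dnajb13*, at under 1 normalized CPM in every mouse, was not called.

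Small heat shock proteins bind unfolding proteins without using ATP. Of 4 tested, 2 rose and 1 fell in *Atg7*-KO, where 21.6% of all genes rose and 22.1% fell. In *Atg7*-KO;*p62T352A* against *Atg7*-KO 1 rose, where 24.7% of all genes rose. *Hspb1* (HSP25), on chromosome 5 (135887919 to 135889563, plus strand), had 26.6, 29.2 and 28.9 in the cont. mice, 108, 116 and 128 in the *Atg7*-KO mice and 53.8, 123 and 44.5 in the *Atg7*-KO;*p62T352A* mice. The cont. mice were close together and far below all others, and *Atg7*-KO;*p62T352A* mouse 2 stood at the level of *Atg7*-KO while the other 2 mice of its genotype lay between cont. and *Atg7*-KO. *Hspb1* rose 4.15-fold in *Atg7*-KO (log2 fold change 2.05 ± 0.34 (SE), edgeR FDR = 0.0013) and was 2.61-fold higher in *Atg7*-KO;*p62T352A* than in cont. livers (log2 fold change 1.38 ± 0.34 (SE), edgeR FDR = 0.0298). The difference between the genotypes with Cre was not called with all mice (log2 fold change -0.67 ± 0.33 (SE), edgeR FDR = 0.112). It was called without *Atg7*-KO;*p62T352A* mouse 2 (log2 fold change -1.25, edgeR FDR = 0.00131) and with offsets for transcript length and GC content (-1.55, edgeR FDR = 0.00211), and those offsets ended the call against cont. (0.82, edgeR FDR = 0.11). In *Hspb1*, 46.4% of the 75-base stretches occur in other transcripts, mainly of a pseudogene without a row in the table.

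*Hspb8*, which works with BAG3 in the autophagic removal of misfolded proteins, had 147, 106 and 152 in the cont. mice, 186, 232 and 223 in the *Atg7*-KO mice and 180.2, 173 and 177 in the *Atg7*-KO;*p62T352A* mice. It rose 1.58-fold in *Atg7*-KO (log2 fold change 0.66 ± 0.19 (SE), edgeR FDR = 0.017), and no other comparison was called. *Hspb6* (HSP20) had 17.3, 18.6 and 19.6 in the cont. mice, 8.80, 8.34 and 8.83 in the *Atg7*-KO mice and 19.0, 16.5 and 12.3 in the *Atg7*-KO;*p62T352A* mice. Its *Atg7*-KO mice lay below all others, and it fell 2.13-fold in *Atg7*-KO (log2 fold change -1.09 ± 0.18 (SE), edgeR FDR = 0.00137) and rose 1.84-fold in *Atg7*-KO;*p62T352A* against *Atg7*-KO (log2 fold change 0.88 ± 0.18 (SE), edgeR FDR = 0.00332). *Hspb11*, a component of intraflagellar transport, was not called in any comparison.

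**Figure D2:**
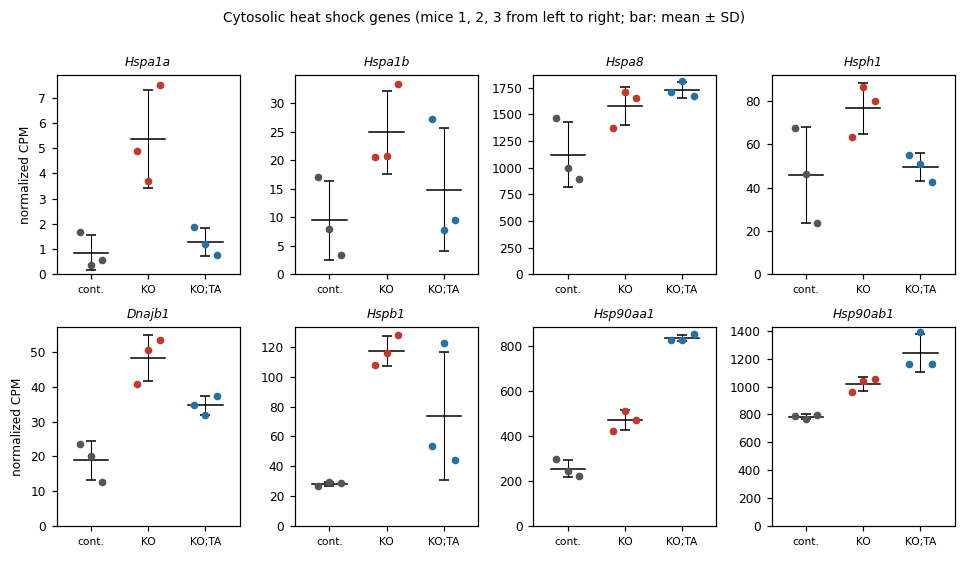
Normalized CPM (linear axis from 0) of 8 cytosolic heat shock genes in each mouse of cont. (grey), *Atg7*-KO (KO, red) and *Atg7*-KO;*p62T352A* (KO;TA, blue); points are mice 1, 2 and 3 from left to right, the bar is the mean and the whisker the SD (n = 3). *Hspa1a* and *Hspb1* are high in all *Atg7*-KO mice, and *Hsp90aa1* steps up from cont. through *Atg7*-KO to *Atg7*-KO;*p62T352A* without overlap.

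The ER set did not move as one, and cont. mouse 1 stood apart in it. Its level over the mean of cont. mice 2 and 3 had a median of 2.75 over the 3 ER HSP70 and HSP90 genes and of 1.63 over the 11 ER J proteins. In the same mouse the summed level of 15 clock genes was 383 normalized CPM against 1051 and 1511 in cont. mice 2 and 3, and that of 6 hepatocyte markers 123654 against 81338 and 72143. The part of these in the ER levels was not tested. Of the 14 ER members, 2 rose and 1 fell in *Atg7*-KO, where 21.6% of all genes rose and 22.1% fell. In *Atg7*-KO;*p62T352A* against *Atg7*-KO livers 2 rose and 6 fell, where 24.7% of all genes rose and 26.2% fell. Without cont. mouse 1, 6 of the 11 ER J proteins rose in *Atg7*-KO and 1 fell. The 3 ER HSP70 and HSP90 genes then had 1 rise and 1 fall, against 28% of all genes rising and 28% falling.

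Sequences before 2 of these genes are shown because ER chaperone genes are known for the ER stress response element, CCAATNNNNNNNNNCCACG. It was found on either strand within 250 bases before the start of 3 members, *Hspa5*, *Hsp90b1* and *Dnajc3* (5.17% of 58), and of 0.13% of all genes. Elements are in capitals:
*Hsp90b1* (chr10:86705510-86705681, minus strand): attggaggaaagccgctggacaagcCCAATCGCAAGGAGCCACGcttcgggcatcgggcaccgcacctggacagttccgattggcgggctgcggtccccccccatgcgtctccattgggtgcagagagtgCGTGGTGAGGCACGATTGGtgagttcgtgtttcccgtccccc
*Dnajc3* (chr14:118937802-118937870, plus strand): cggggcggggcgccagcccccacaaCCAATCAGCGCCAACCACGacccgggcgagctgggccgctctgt
*Hsp90b1* had a pair of elements in opposite orientation. By the mean of all mice, the 3 genes with the element were lowest in *Atg7*-KO, and only *Hsp90b1* was called there. For *Hspa5* and *Dnajc3* that order rests on cont. means that include the high cont. mouse 1. Cont. mouse 3 was below every *Atg7*-KO mouse for both genes.

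*Hsp90b1* (GRP94), the HSP90 of the ER and the chaperone of integrins and Toll-like receptors, had 1008, 720.1 and 716 in the cont. mice, 359, 458 and 373 in the *Atg7*-KO mice and 1059.9, 1453 and 969.9 in the *Atg7*-KO;*p62T352A* mice. The *Atg7*-KO mice were below all other mice, and the *Atg7*-KO;*p62T352A* mice overlapped with cont. It fell 2.06-fold in *Atg7*-KO (log2 fold change -1.04 ± 0.24 (SE), edgeR FDR = 0.00607) and rose 2.93-fold in *Atg7*-KO;*p62T352A* against *Atg7*-KO (log2 fold change 1.55 ± 0.24 (SE), edgeR FDR = 0.000669), calls that held in all 18 alternative settings. *Hspa5* (BiP), the HSP70 of the ER lumen and a sensor partner of the unfolded protein response, had 1409, 679 and 346 in the cont. mice, 462, 515 and 454 in the *Atg7*-KO mice and 550.4, 737 and 448 in the *Atg7*-KO;*p62T352A* mice. Cont. mouse 1 was the highest of all mice and cont. mouse 3 the lowest, the groups overlapped, and no comparison was called (log2 fold change -0.77 ± 0.43 (SE), edgeR FDR = 0.165 for *Atg7*-KO against cont.).

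*Dnajb9* (ERdj4), a target of the IRE1 and XBP1 branch that keeps IRE1 in check, showed the widest change among the members in *Atg7*-KO;*p62T352A* against *Atg7*-KO livers. It had 141, 54.0 and 23.5 in the cont. mice, 92.7, 82.9 and 74.2 in the *Atg7*-KO mice and 21.4, 23.7 and 12.6 in the *Atg7*-KO;*p62T352A* mice. All *Atg7*-KO mice were above all *Atg7*-KO;*p62T352A* mice, whereas the cont. mice ranged from the level of the one group to above the other. *Dnajb9* fell 4.32-fold in *Atg7*-KO;*p62T352A* against *Atg7*-KO (log2 fold change -2.11 ± 0.54 (SE), edgeR FDR = 0.00904). It was also lower than in cont. with all mice (log2 fold change -1.92 ± 0.54 (SE), edgeR FDR = 0.0469), a call lost without cont. mouse 1, where the log2 fold change was -1.01 (FDR = 0.052). In *Atg7*-KO against cont. it was not called with all mice (log2 fold change 0.19 ± 0.52 (SE), edgeR FDR = 0.783) and was called without cont. mouse 1, at 1.10 (FDR = 0.0198). *Ern1*, the gene of IRE1, had a mean of 18.6 ± 11.5 in the cont. mice, 25.5 ± 4.21 in the *Atg7*-KO mice and 1.86 ± 0.149 in the *Atg7*-KO;*p62T352A* mice (normalized CPM with SD, n = 3), and it fell 13.6-fold in *Atg7*-KO;*p62T352A* against *Atg7*-KO (edgeR FDR = 0.000145). This was the largest fall there among 26 other ER folding genes, of which 8 rose (log2 fold change up to 3.48) and 3 fell. A link between *Ern1* and *Dnajb9* was not tested.

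*Hspa13*, a small microsomal HSP70, had 77.6, 32.5 and 14.5 in the cont. mice, 52.4, 52.6 and 44.7 in the *Atg7*-KO mice and 22.1, 22.6 and 16.9 in the *Atg7*-KO;*p62T352A* mice. It fell 2.43-fold in *Atg7*-KO;*p62T352A* against *Atg7*-KO (log2 fold change -1.28 ± 0.47 (SE), edgeR FDR = 0.0424), and the cont. mice spanned both groups. *Dnajc10* (ERdj5), a disulfide reductase of ER-associated degradation, had 34.4, 17.9 and 18.1 in the cont. mice, 63.5, 56.3 and 56.2 in the *Atg7*-KO mice and 29.8, 24.2 and 23.9 in the *Atg7*-KO;*p62T352A* mice. Its *Atg7*-KO mice were above all others, and it rose 2.49-fold in *Atg7*-KO (log2 fold change 1.32 ± 0.26 (SE), edgeR FDR = 0.003) and fell 2.26-fold in *Atg7*-KO;*p62T352A* against *Atg7*-KO (log2 fold change -1.17 ± 0.26 (SE), edgeR FDR = 0.00415). *Dnajb12*, a membrane J protein of ER-associated degradation, had 36.0, 19.4 and 17.4 in the cont. mice, 33.3, 35.5 and 33.9 in the *Atg7*-KO mice and 12.1, 15.8 and 9.27 in the *Atg7*-KO;*p62T352A* mice. It fell 2.76-fold in *Atg7*-KO;*p62T352A* against *Atg7*-KO (log2 fold change -1.47 ± 0.30 (SE), edgeR FDR = 0.00271), and all 3 of its *Atg7*-KO;*p62T352A* mice were also below the cont. mice, which was not called (log2 fold change -0.98 ± 0.29 (SE), edgeR FDR = 0.0605).

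*Dnajc1*, a membrane J protein at the translocon, ran opposite, with 38.7, 43.1 and 55.3 in the cont. mice, 31.2, 32.7 and 31.3 in the *Atg7*-KO mice and 79.0, 68.5 and 85.8 in the *Atg7*-KO;*p62T352A* mice. The groups did not overlap. It rose 2.45-fold in *Atg7*-KO;*p62T352A* against *Atg7*-KO (log2 fold change 1.29 ± 0.18 (SE), edgeR FDR = 0.000376) and was 1.70-fold higher than in cont. (log2 fold change 0.77 ± 0.18 (SE), edgeR FDR = 0.0248), while the difference between *Atg7*-KO and cont. stayed under the fold threshold (log2 fold change -0.52 ± 0.18 (SE), edgeR FDR = 0.0346).

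*Dnajb11* (ERdj3) and *Dnajc3* (P58IPK), lumenal partners of BiP, were, like *Hsp90b1*, lowest on average in *Atg7*-KO, and neither was called. *Dnajb11* had 112, 80.4 and 48.6 in the cont. mice, 50.2, 53.3 and 50.6 in the *Atg7*-KO mice and 83.5, 115 and 62.5 in the *Atg7*-KO;*p62T352A* mice, and *Dnajc3* had 317, 168 and 123 in the cont. mice, 157, 161 and 141 in the *Atg7*-KO mice and 267, 265 and 240.1 in the *Atg7*-KO;*p62T352A* mice. For both, all *Atg7*-KO;*p62T352A* mice were above all *Atg7*-KO mice, with log2 fold changes of 0.76 ± 0.31, FDR = 0.0592 and 0.75 ± 0.30, FDR = 0.0604 (SE and edgeR FDR). Without cont. mouse 1 both differences were called, at 0.76 (FDR = 0.0165) and 0.75 (FDR = 0.00152). Of the other ER J proteins, *Dnajc18* rose in *Atg7*-KO (1.72-fold, edgeR FDR = 0.0147) and *Dnajc16* and *Dnajc18* fell in *Atg7*-KO;*p62T352A* against *Atg7*-KO (2.15-fold and 1.51-fold, edgeR FDR of 0.00524 and 0.0375). The fall of *Dnajc18* was kept in 7 of 18 alternative settings. *Dnajb14*, *Dnajc14* and *Dnajc25* were not called in any comparison with all mice.

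**Figure D3:**
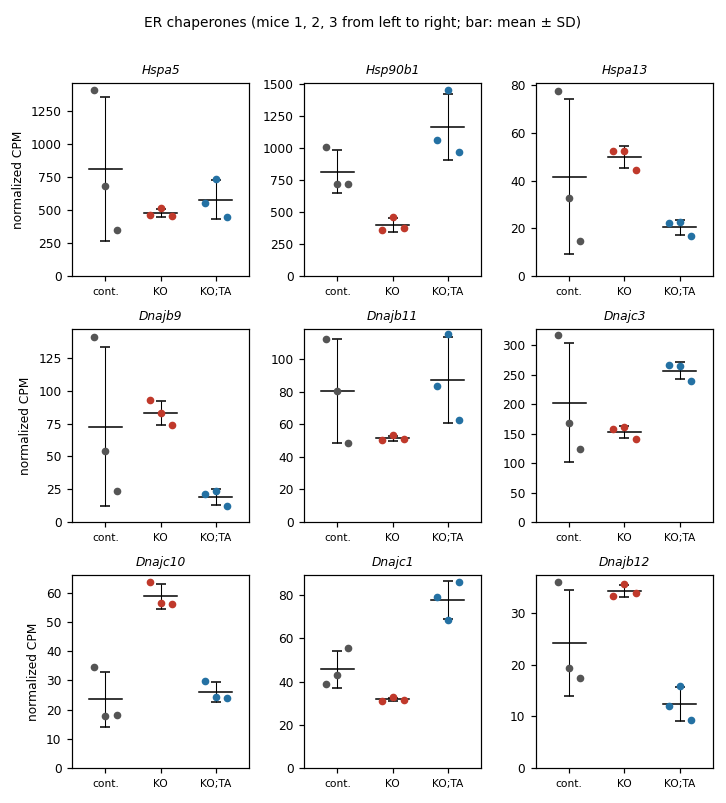
Normalized CPM (linear axis from 0) of 9 ER chaperone genes in each mouse, drawn as in the plot of cytosolic genes with mean and SD (n = 3). Cont. mouse 1, the leftmost grey point, is the highest cont. mouse for 8 of the 9 genes, *Hsp90b1* is lowest in the 3 *Atg7*-KO mice, and *Dnajb9* and *Dnajb12* are lowest in *Atg7*-KO;*p62T352A* mice but for cont. mouse 3 of *Dnajb9*, which is at their level.

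Among mitochondrial chaperones *Hspa9*, *Hspd1*, *Hspe1* and *Dnaja3* were not called with all mice. Of the 10 members 2 fell in *Atg7*-KO, where 22.1% of all genes fell, and 4 rose in *Atg7*-KO;*p62T352A* against *Atg7*-KO livers, where 24.7% of all genes rose. *Hspa9* (mortalin), the HSP70 of the matrix, had 509, 269 and 212 in the cont. mice, 339, 349 and 345 in the *Atg7*-KO mice and 197, 311 and 209 in the *Atg7*-KO;*p62T352A* mice. *Hspd1* (HSP60) had 383, 215 and 215 in the cont. mice, 318, 358 and 350.0 in the *Atg7*-KO mice and 277, 347 and 255 in the *Atg7*-KO;*p62T352A* mice, and its partner *Hspe1* (HSP10), which overlaps it head to head on chromosome 1 (55088132 to 55091307, plus strand, against 55077835 to 55088243, minus strand), had 170.4, 109 and 124 in the cont. mice, 172, 179 and 179.7 in the *Atg7*-KO mice and 129, 231 and 128 in the *Atg7*-KO;*p62T352A* mice. Whether reads in the overlap were split by strand is not given in the sources used here. For all 3 genes cont. mouse 1 was the highest cont. mouse, above every *Atg7*-KO mouse for *Hspa9* and *Hspd1* and just below them for *Hspe1*. None was called with all mice (0.06 ± 0.32, FDR = 0.889 for *Hspa9*, 0.34 ± 0.25, FDR = 0.301 for *Hspd1* and 0.40 ± 0.26, FDR = 0.243 for *Hspe1* in *Atg7*-KO against cont., log2 with SE and edgeR FDR). Without cont. mouse 1 *Hspd1* was called in *Atg7*-KO, at 0.67 (FDR = 0.00739). *Dnaja3* (TID1), the J protein partner of mortalin, had 106, 75.8 and 60.9 in the cont. mice, 69.9, 67.5 and 69.5 in the *Atg7*-KO mice and 90.3, 104 and 84.1 in the *Atg7*-KO;*p62T352A* mice, and no comparison was called (log2 fold change 0.43 ± 0.21 (SE), edgeR FDR = 0.108 for *Atg7*-KO;*p62T352A* against *Atg7*-KO).

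*Dnajc19*, the J protein of the import motor at the inner membrane, had 65.0, 45.6 and 46.0 in the cont. mice, 37.9, 32.8 and 34.0 in the *Atg7*-KO mice and 120.4, 102 and 81.9 in the *Atg7*-KO;*p62T352A* mice. All 3 groups were apart, with *Atg7*-KO lowest and *Atg7*-KO;*p62T352A* highest. It rose 2.91-fold in *Atg7*-KO;*p62T352A* against *Atg7*-KO (log2 fold change 1.54 ± 0.21 (SE), edgeR FDR = 0.000351) and was 1.94-fold higher than in cont. (log2 fold change 0.96 ± 0.21 (SE), edgeR FDR = 0.0206), while its lower level in *Atg7*-KO was just under the fold threshold (log2 fold change -0.58 ± 0.21 (SE), edgeR FDR = 0.0414). *Dnajc4* had 10.8, 15.2 and 17.5 in the cont. mice, 6.87, 7.48 and 7.55 in the *Atg7*-KO mice and 24.8, 20.1 and 18.5 in the *Atg7*-KO;*p62T352A* mice. It fell 1.98-fold in *Atg7*-KO (log2 fold change -0.98 ± 0.21 (SE), edgeR FDR = 0.00447) and rose 2.89-fold in *Atg7*-KO;*p62T352A* against *Atg7*-KO (log2 fold change 1.53 ± 0.21 (SE), edgeR FDR = 0.000369). *Dnajc11*, which is bound to the cristae-shaping MICOS complex, fell 1.63-fold in *Atg7*-KO (edgeR FDR = 0.00456) and rose 1.79-fold in *Atg7*-KO;*p62T352A* against *Atg7*-KO (edgeR FDR = 0.00154). *Dnajc30* rose 1.88-fold in the latter comparison (edgeR FDR = 0.00627). *Dnajc15*, the paralogue of *Dnajc19*, and *Dnajc28* were not called in any comparison with all mice.

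**Figure D4:**
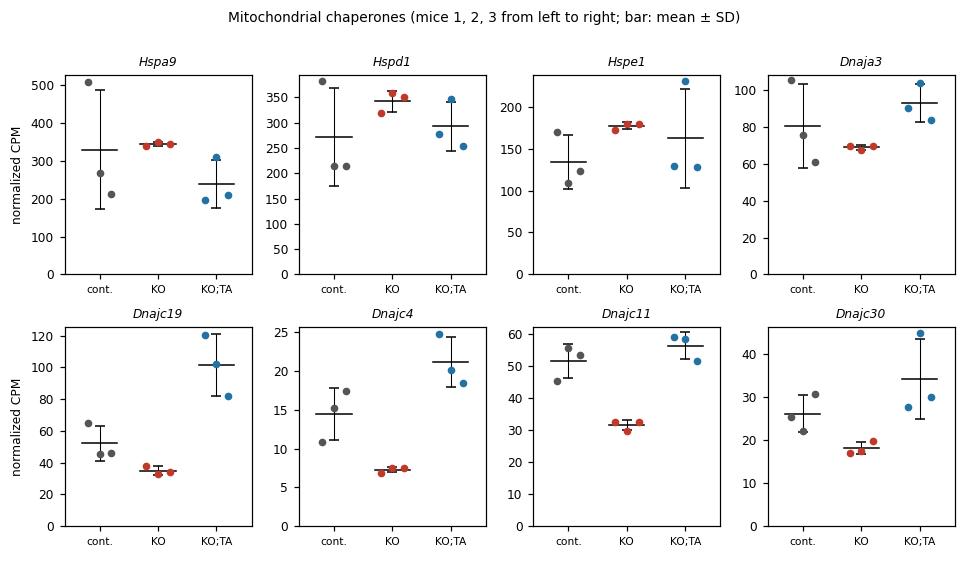
Normalized CPM (linear axis from 0) of 8 mitochondrial chaperone genes in each mouse, drawn as in the plot of cytosolic genes with mean and SD (n = 3). The cont. mice overlap with both other genotypes for *Hspa9* and *Hspd1*, and the 3 *Atg7*-KO mice are the lowest for *Dnajc19*, *Dnajc4*, *Dnajc11* and *Dnajc30*.

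The other class C J proteins serve the ribosome, histones, the spliceosome and vesicles, and 12 of 15 were tested. In *Atg7*-KO 1 rose and 1 fell, where 21.6% of all genes rose and 22.1% fell. In *Atg7*-KO;*p62T352A* against *Atg7*-KO 4 rose and 3 fell, where 24.7% of all genes rose and 26.2% fell. Without cont. mouse 1, 3 rose and 1 fell in *Atg7*-KO, against 28% of all genes rising and 28% falling. *Dnajc9*, a co-chaperone of histones, had 6.30, 4.07 and 3.19 in the cont. mice, 10.4, 9.45 and 11.8 in the *Atg7*-KO mice and 7.14, 6.44 and 5.48 in the *Atg7*-KO;*p62T352A* mice. It rose 2.30-fold in *Atg7*-KO (log2 fold change 1.20 ± 0.26 (SE), edgeR FDR = 0.00487) and fell 1.66-fold in *Atg7*-KO;*p62T352A* against *Atg7*-KO (log2 fold change -0.73 ± 0.25 (SE), edgeR FDR = 0.0345). *Dnajc7* (TPR2), which links HSP70 and HSP90, had 43.0, 91.7 and 91.8 in the cont. mice, 36.6, 35.9 and 35.2 in the *Atg7*-KO mice and 58.6, 69.0 and 64.9 in the *Atg7*-KO;*p62T352A* mice. Cont. mouse 1 was far below the other cont. mice and still above *Atg7*-KO. *Dnajc7* fell 2.10-fold in *Atg7*-KO (log2 fold change -1.07 ± 0.27 (SE), edgeR FDR = 0.00919) and rose 1.79-fold in *Atg7*-KO;*p62T352A* against *Atg7*-KO (log2 fold change 0.84 ± 0.26 (SE), edgeR FDR = 0.023).

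*Dnajc12*, a co-chaperone of the aromatic amino acid hydroxylases, among them phenylalanine hydroxylase of the liver, had 9.63, 5.39 and 4.29 in the cont. mice, 11.5, 9.37 and 12.1 in the *Atg7*-KO mice and 2.71, 3.99 and 2.81 in the *Atg7*-KO;*p62T352A* mice. The *Atg7*-KO;*p62T352A* mice were below all others, and *Dnajc12* fell 3.46-fold against *Atg7*-KO (log2 fold change -1.79 ± 0.32 (SE), edgeR FDR = 0.00135). *Dnajc2*, the ribosome-associated J protein, had 17.9, 27.3 and 28.2 in the cont. mice, 21.9, 21.5 and 23.7 in the *Atg7*-KO mice and 50.7, 49.6 and 59.3 in the *Atg7*-KO;*p62T352A* mice. Its *Atg7*-KO;*p62T352A* mice were above all others, with a rise of 2.38-fold against *Atg7*-KO (log2 fold change 1.25 ± 0.20 (SE), edgeR FDR = 0.000765) and of 2.18-fold against cont. (log2 fold change 1.12 ± 0.20 (SE), edgeR FDR = 0.0105). *Dnajc17* had 2.81, 4.07 and 4.40 in the cont. mice, 2.71, 3.57 and 3.75 in the *Atg7*-KO mice and 8.07, 8.34 and 5.94 in the *Atg7*-KO;*p62T352A* mice and likewise was higher in *Atg7*-KO;*p62T352A* than in *Atg7*-KO (log2 fold change 1.15 ± 0.25 (SE), edgeR FDR = 0.00425) and in cont. (log2 fold change 1.00 ± 0.26 (SE), edgeR FDR = 0.0366). *Dnajc21*, a factor of ribosome assembly, rose 1.83-fold (edgeR FDR = 0.000844) and *Dnajc27* fell 1.89-fold (edgeR FDR = 0.0392) in *Atg7*-KO;*p62T352A* against *Atg7*-KO, the call of *Dnajc27* in 7 of 17 alternative settings. *Dnajc5*, *Dnajc8*, *Dnajc13*, *Dnajc22* and *Dnajc24* were not called in any comparison with all mice.

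The 10 members without enough counts were *Dnajb3*, *Dnajb7*, *Dnajb8*, *Dnajc5b*, *Dnajc5g*, *Dnajc6*, *Hspb2*, *Hspb3*, *Hspb7* and *Hspb9*. *Dnajb8*, *Dnajc5g* and *Hspb3* had no count in any mouse, and *Hspb2* had the most, with 6, 1 and 3 counts in the cont. mice, 19, 11 and 27 in the *Atg7*-KO mice and 6, 2 and 1 in the *Atg7*-KO;*p62T352A* mice. Of the calls among tested members, 13 of 19 for *Atg7*-KO against cont., 20 of 30 for *Atg7*-KO;*p62T352A* against *Atg7*-KO and 2 of 10 for *Atg7*-KO;*p62T352A* against cont. held in every alternative setting in which the gene was tested. The 2 were *Hsp90aa1* and *Dnajc2*. Calls kept in 10 or fewer settings, beside those named above, were *Hspa13* and *Hspa14* for *Atg7*-KO;*p62T352A* against *Atg7*-KO (10 of 18 each), and *Dnajb1* (7), *Dnajc17* (8), *Dnajb9* (9) and *Hspa12a* (9 of 18) for *Atg7*-KO;*p62T352A* against cont. By mean level, 31 of the tested members were highest in *Atg7*-KO, 23 in *Atg7*-KO;*p62T352A* and 8 in cont. livers. This order was not counted over all genes, so it is not a trait of the members, and the cont. means include cont. mouse 1.

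**Figure D5:**
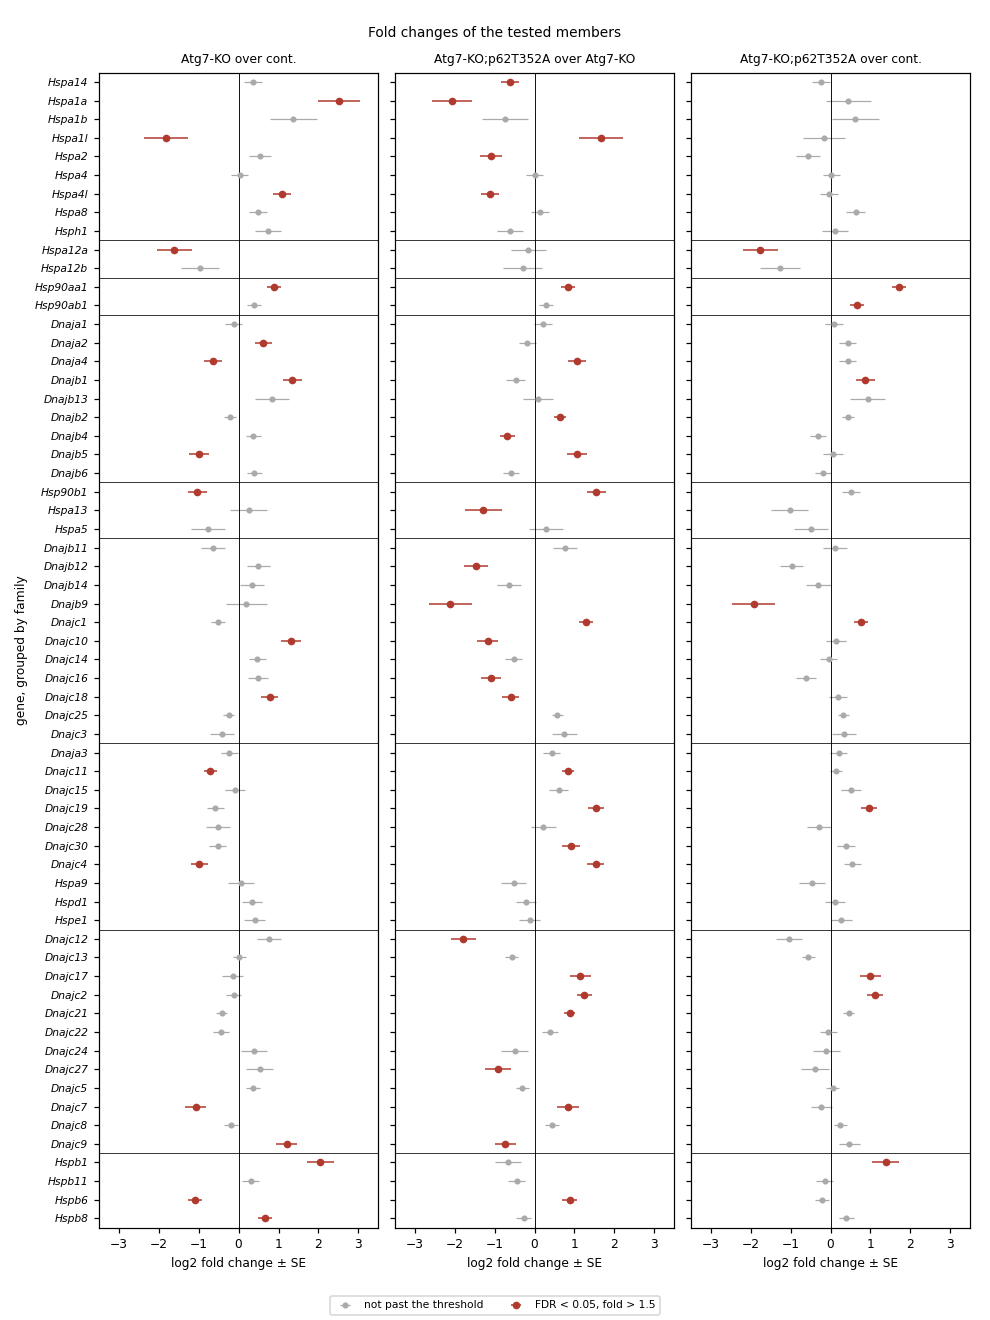
Log2 fold change (points) with its SE (bars) of the 62 tested members, grouped by family, in the 3 comparisons; red points passed FDR under 0.05 and a fold change over 1.5. Red points stand on both sides of 0 in the first 2 panels (10 and 9, 16 and 14), and 8 of the 10 in the third are to the right of 0.

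Partners of the chaperones were read from lists of genes. Their counts are to be read against all genes, of which 21.6% rose and 22.1% fell in *Atg7*-KO, and 24.7% rose and 26.2% fell in *Atg7*-KO;*p62T352A* against *Atg7*-KO. Of 5 genes, the heat shock factors *Hsf1*, *Hsf2*, *Hsf4* and *Hsf5* and their binding protein *Hsbp1*, *Hsf1*, *Hsf4* and *Hsf5* fell in *Atg7*-KO, and all 5 rose in *Atg7*-KO;*p62T352A* against *Atg7*-KO. *Hsf1*, the main activator of the cytosolic set, had 13.9, 38.1 and 38.9 in the cont. mice, 14.9, 15.2 and 16.5 in the *Atg7*-KO mice and 30.4, 27.6 and 30.3 in the *Atg7*-KO;*p62T352A* mice, with a log2 fold change of -0.96 ± 0.33, FDR = 0.0369 in *Atg7*-KO and of 0.92 ± 0.33, FDR = 0.037 in *Atg7*-KO;*p62T352A* against *Atg7*-KO (SE and edgeR FDR). Cont. mouse 1 was below every *Atg7*-KO mouse, and the other 2 cont. mice were above all mice. *Hsf4* fell 2.68-fold in *Atg7*-KO (edgeR FDR = 0.0118), and *Hsf5* had 1 count at most in each *Atg7*-KO mouse. Of 19 HSP90 co-chaperones 4 fell and none rose in *Atg7*-KO, and 6 rose and none fell in *Atg7*-KO;*p62T352A* against *Atg7*-KO. The largest falls were those of *Cdc37l1* (-1.01, edgeR FDR = 0.00379) and *Pih1d1* (-0.82, edgeR FDR = 0.00878), and the highest values, for *Ahsa1* (0.50) and *Nudc* (0.42), were not called.

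Of 16 tested exchange factors and partners of HSP70, 1 rose and 3 fell in *Atg7*-KO, and 2 rose and 2 fell in *Atg7*-KO;*p62T352A* against *Atg7*-KO. *Bag2*, an exchange factor that inhibits the ubiquitin ligase CHIP, rose 2.95-fold (edgeR FDR = 0.0102), and *Stub1*, the gene of CHIP, fell 2.25-fold in *Atg7*-KO (edgeR FDR = 0.00495). *Bag3* and *Hyou1*, next in size, were not called at 0.59 and -0.96 on the log2 scale. Of 14 subunits of the chaperonin CCT and prefoldin, 1 rose (*Vbp1*, 2.27-fold; *Cct5*, next, was at 0.67 and not called) and 3 fell in *Atg7*-KO, the most *Pfdn6* (2.43-fold) and *Pfdn2* (1.90-fold), and 5 rose and 2 fell in *Atg7*-KO;*p62T352A* against *Atg7*-KO.

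Of 26 other genes of ER folding and the unfolded protein response, 1 rose and 7 fell in *Atg7*-KO, and 8 rose and 3 fell in *Atg7*-KO;*p62T352A* against *Atg7*-KO. *Derl3* and *Herpud1*, both of ER-associated degradation, fell the most in *Atg7*-KO (-2.10 and -1.54 on the log2 scale, edgeR FDR of 0.00543 and 0.000124), and *Ero1l*, an oxidase of disulfide formation, rose 1.54-fold (edgeR FDR = 0.0413). Of 15 genes of mitochondrial import and proteases, 4 fell in *Atg7*-KO, the most *Grpel2* (1.76-fold) and *Pam16* (1.74-fold), which is a partner of the *Dnajc19* product, and 4 rose in *Atg7*-KO;*p62T352A* against *Atg7*-KO. None of the 15 rose in *Atg7*-KO (the highest were *Hscb* at 0.32 and *Grpel1* at 0.06), and none fell in *Atg7*-KO;*p62T352A* against *Atg7*-KO.

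Other groups of genes also differed between the genotypes, and their part in the results was not tested. All 12 NRF2 targets listed rose in *Atg7*-KO, the most *Gsta1* and *Abcc4* (6.88 and 5.75 on the log2 scale, edgeR FDR of 0.000278 and 7.22e-06), and fell in *Atg7*-KO;*p62T352A* against *Atg7*-KO, and their summed level was 2781 to 3532 normalized CPM in the cont. mice, 15911 to 17907 in the *Atg7*-KO mice and 3326 to 4912 in the *Atg7*-KO;*p62T352A* mice. All 6 hepatocyte markers fell in *Atg7*-KO, and 5 rose in *Atg7*-KO;*p62T352A* against *Atg7*-KO. Their summed level was 72143 to 123654 in the cont. mice, 35471 to 37585 in the *Atg7*-KO mice and 109009 to 124411 in the *Atg7*-KO;*p62T352A* mice. In *Atg7*-KO 4 of 6 macrophage, 4 of 5 stellate and fibroblast, 4 of 5 cholangiocyte, 2 of 4 lymphocyte, 2 of 3 smooth muscle and 1 of 4 endothelial markers rose, 1 endothelial marker fell, and neither erythroid marker was called. In *Atg7*-KO;*p62T352A* against *Atg7*-KO 4 macrophage, 3 stellate and fibroblast, 3 cholangiocyte, 2 endothelial, 2 smooth muscle, 1 lymphocyte and 1 erythroid marker fell, and 1 macrophage marker rose. In *Atg7*-KO;*p62T352A* against cont. 3 cholangiocyte and 1 stellate and fibroblast marker rose, and 3 endothelial, 1 hepatocyte and 1 erythroid marker fell. The summed cholangiocyte level was 33.4 to 51.2 in the cont. mice, 823 to 1018 in the *Atg7*-KO mice and 180 to 265 in the *Atg7*-KO;*p62T352A* mice, and the macrophage level 216 to 281, 792 to 841 and 153 to 300. Among 15 clock genes 10 fell in *Atg7*-KO, the most *Ciart* and *Dbp* (-5.06 and -4.97), and 3 rose in *Atg7*-KO;*p62T352A* against *Atg7*-KO. Their summed level was 383 to 1511 in the cont. mice, 194 to 255 in the *Atg7*-KO mice and 330 to 471 in the *Atg7*-KO;*p62T352A* mice. Of the 10 immediate early genes, 3 fell in *Atg7*-KO, the most *Fosb* (-5.86), and their summed level was 111, 273 and 3744 in the cont. mice, 223 to 247 in the *Atg7*-KO mice and 325 to 639 in the *Atg7*-KO;*p62T352A* mice. Of the 2 cold-inducible genes *Cirbp* fell (2.06-fold, edgeR FDR = 0.00296), and *Rbm3* was not called (0.45).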

How the data were processed

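Poly(A) RNA from 9 livers, 3 per genotype, was read as 75-base single-end reads. The authors trimmed the reads with Trim Galore, aligned them with STAR to mm10 and estimated gene abundance with RSEM, per the study's methods and the submitters' processing notes, and they deposited expected counts per gene. Versions, the annotation and the strand setting are not given in the sources used here. RSEM shares reads between similar transcripts by estimation, so genes with near-identical copies are uncertain.

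Expected counts were rounded, genes with low counts were left out (filterByExpr), and the 3 genotypes were fitted in 1 model with TMM scaling and edgeR's quasi-likelihood test (edgeR 4.0.16, R 4.3.3), which kept 13922 of 24411 genes. A call needed an adjusted p (Benjamini-Hochberg) under 0.05 and a fold change over 1.5. The test was tested on simulated data of 13671 genes, where it recovered 87.5% of 200 genes changed 3-fold and called 9 of 13471 unchanged ones for *Atg7*-KO against cont. The simulated mice shared a mean profile and the same spread for every gene, and none stood apart as cont. mouse 1 does. These rates therefore need not hold for the real livers or for changes near 1.5-fold. The symbol rule uses no measured value, but the group of members, the families and the lists were chosen with earlier results of these data known. Values in every mouse are given for core members and for the 6 called members with the largest rise and fall in each comparison, among those with a mean of at least 1 normalized CPM. Genes named from the other lists were mostly among the 2 highest or the 2 lowest in *Atg7*-KO relative to cont., and some lists give only one of these ends. *Hsf1*, the middle value of its list, was named as the main activator of the cytosolic set, and *Ern1* as the gene of IRE1. Alternatives were DESeq2 1.42.0, its size factors, upper-quartile scaling, other count filters, leaving out the 20 genes with the most counts, the mouse number as a block, FDR alone, each mouse or the 3 mice numbered 1 left out, and, chosen after seeing the data, offsets for transcript length and GC content. Shared sequence was counted as the 75-base stretches of all transcripts of a member that also occur in a transcript of another gene (GENCODE, GRCm38). Promoters were RefSeq sequences of GRCm38.p6, and stretches over annotated exons were left out. Each genotype had 3 mice. A p-value here sets a difference between genotypes against the spread between mice within genotypes, estimated from these animals with information shared between genes.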

Additional observations from a re-analysis of the deposited data

How the results depend on the processing

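Over all 62 tested members and the 3 comparisons, none of the 59 calls changed sign in any alternative, while 41 of the 127 values that were not called did, among them *Dnaja1*, *Hspa4*, *Hspa9*, *Dnajb9* and *Hspa13* in *Atg7*-KO against cont. The members higher in *Atg7*-KO than cont. numbered 10 with all mice, between 7 and 23 with 1 mouse left out, where cont. mouse 1 gave the 23, and 22 with the 3 mice numbered 1 left out. The members lower in *Atg7*-KO numbered 9, and between 6 and 14 with 1 mouse left out, where cont. mouse 3 gave the 14. In *Atg7*-KO;*p62T352A* against *Atg7*-KO livers 16 were higher, between 14 and 19 with 1 mouse left out, and 14 were lower, between 9 and 17, where leaving out *Atg7*-KO mouse 2 or mouse 3 gave 9. The comparison of *Atg7*-KO;*p62T352A* with cont. depended most on the setting. Its 8 higher members became between 2 and 14 with 1 mouse left out (14 without cont. mouse 1, 2 without cont. mouse 2, 5 without cont. mouse 3, and 3 or 4 without any mouse of the other genotypes) and 4 with offsets for transcript length and GC content. Its 2 lower members became 5 with DESeq2 and between 0 and 4 with 1 mouse left out, 4 without cont. mouse 3, and the cause was not tested. The labels tie no animals together by number, and mice of equal number had mean correlations of 0.238, -0.0515 and 0.282 for numbers 1, 2 and 3, so number 2 did not meet the minimum set for pairing. As a hint from the data, 6 of 9 mice had their highest mean correlation, over the mice of the other genotypes, with those of their own number. The mice numbered 1 also shared low *Xist*. With the replicate block, 5 members were higher and 1 was lower in *Atg7*-KO;*p62T352A* than in cont. livers, and the other 4 counts stayed within 1.5 times of those without it. It ended the calls of *Dnaja4* in *Atg7*-KO, of *Dnajc18* and *Dnajc27* in *Atg7*-KO;*p62T352A* against *Atg7*-KO, and of *Dnajb1*, *Dnajc17*, *Hsp90ab1* and *Hspa12a* against cont., and added *Hspa1b*, *Dnajc13* and *Dnajc3*. Upper-quartile scaling moved the median of all genes to 0.08 in *Atg7*-KO against cont. and to -0.13 in *Atg7*-KO;*p62T352A* against *Atg7*-KO. Of 3339 values of single members under the alternatives other than FDR alone, 160 lost a call and 111 gained one. Low counts limit *Hspa1a*, *Hspa1l*, *Hspa12a* and *Hsf5*.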
